A study of Mus musculus with 9 samples.

Results

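The inflammasome and pyroptosis genes described here were 9 of the 50559 genes listed in the count data. They were chosen by symbol for their known roles, with earlier results of these data known. They were *Nlrp3*, *Aim2*, *Nlrc4*, and *Nlrp1b* (sensors), *Pycard* (the adaptor ASC), *Casp1* and *Casp4* (inflammatory caspases), and *Il18* and *Gsdmd* (caspase substrates). RNA-Seq was performed on CD45+CD11b+ myeloid cells sorted from the quadriceps of 4.5-week-old *mdx* mice, a dystrophin-deficient model of Duchenne muscular dystrophy. All mice carried the *mdx* mutation, and they received vehicle, the mineralocorticoid receptor antagonist spironolactone, or the glucocorticoid prednisolone for 7 days. Each group had 3 libraries, and each library was made from the cells of 3 mice pooled together, so that *n* counts pools rather than animals. Both sexes were used, with a larger share of females in the prednisolone group than in the others, and the sexes within a pool are not stated. No wild-type group and no untreated group were analysed here, and live cells were not separated from dead cells in the sort. The question addressed was whether the drugs differ in how they affect the expression of these genes in the myeloid cells of dystrophic muscle.

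Inflammasomes are cytosolic complexes in which a sensor, on meeting its trigger, recruits the adaptor ASC and activates caspase-1. Active caspase-1 cleaves the precursors of IL-18 and IL-1 beta and cleaves gasdermin D, whose released fragment forms pores in the plasma membrane and ends the cell by pyroptosis, while the protein encoded by mouse *Casp4* cleaves gasdermin D after binding bacterial lipopolysaccharide. Transcription of several of these genes is a priming step only, and the complexes are controlled mainly at the level of assembly and cleavage, which RNA counts do not measure. In dystrophic muscle, damaged fibers release molecules that can engage innate sensors of infiltrating macrophages and monocytes.

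All 9 genes were expressed in all 9 libraries and passed the low-count filter, with the lowest count of any gene in any library at 337 reads (*Nlrc4*, spironolactone replicate 3), where counting error alone is 5.45%. The libraries held 31469815 to 32943512 counts on genes. Levels within a gene are given as TMM-normalized CPM, which are counts scaled to library size, and differences as log2 fold changes ± SE from the quasi-likelihood test of edgeR with *P* values adjusted over all 16618 genes tested. The sort markers *Ptprc* (CD45) and *Itgam* (CD11b) were abundant in every library, at 545 to 659.6 CPM and 978 to 1486 CPM. *Itgam* was lower in spironolactone libraries (978 to 1170 CPM) than in prednisolone libraries (1281 to 1486 CPM), with an edgeR adjusted *P* under 0.05. *Ptprc* did not pass 0.05 in that comparison. Vehicle replicate 1 stood apart from the other vehicle libraries, with a chi-square per degree of freedom of 51.6 and 63.8 against them while they differed from each other by 22.5. For each of the 9 genes, the differences from vehicle are therefore also given as the range over 9 fits that each left out 1 library, with the library at each end. In bulk RNA of sorted cells, fewer cells of a type and less RNA per cell cannot be told apart.

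Per exon length, the genes spread over a wide range of levels. The length was that of all annotated exons of a gene merged over its transcripts, such as 4235 bases for *Pycard* and 3136 for *Casp1*. Which transcripts the cells expressed was not tested, so that the order between genes holds only for this length. In vehicle libraries, *Nlrp3* was at 183 ± 19.8 TPM, a value scaled to exon length and library size (SD, *n* = 3), and *Gsdmd* at 166 ± 17.3 TPM, and these neighbors did not differ beyond their spread. *Casp1* followed at 94.9 ± 12.6 TPM and *Pycard* at 82.4 ± 7.32 TPM, again within the spread of each other and below *Gsdmd*. A lower tier held *Aim2* at 32.8 ± 2.38, *Nlrp1b* at 32.8 ± 11.7, *Casp4* at 31.4 ± 6.20, and *Il18* at 28.0 ± 2.69 TPM, and in this order the libraries of each gene overlapped those of the next. *Nlrc4* was the lowest of the 9 at 13.6 ± 4.51 TPM. On this scale, the adaptor, *Casp1*, and the pore former were above the cytokine *Il18* and the sensors other than *Nlrp3*. Levels per expressed transcript were not measured. In spironolactone libraries *Nlrp3* was at 119 ± 33.4 TPM, below *Gsdmd* at 165 ± 4.97 TPM, whereas in prednisolone libraries *Nlrp3* was at 198 ± 56.0 TPM and *Gsdmd* at 145 ± 2.2 TPM.

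**Figure D1:**
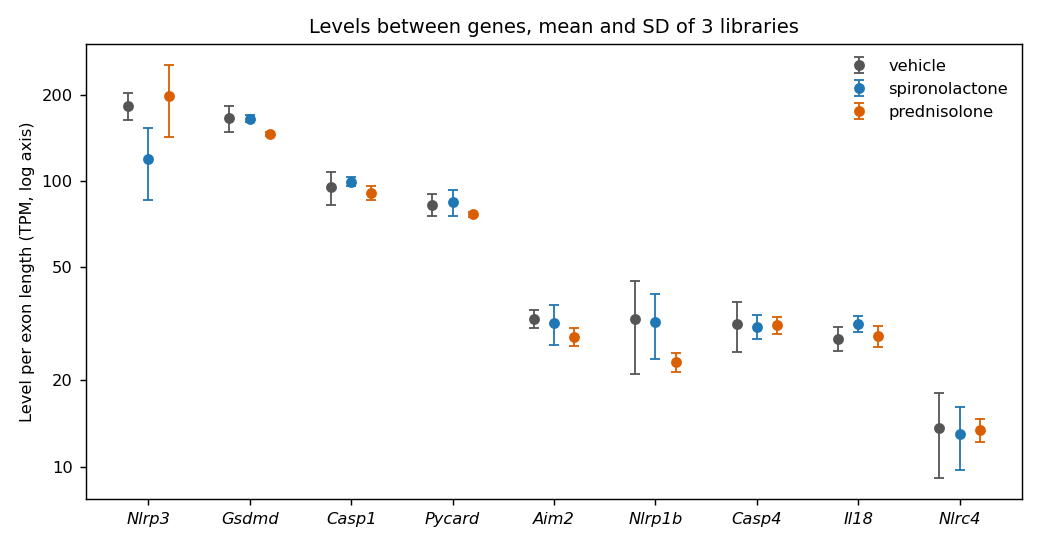
Levels of the 9 genes per exon length in TPM on a log axis, ordered by the vehicle mean, with points at the mean and bars at the SD of 3 libraries for vehicle, spironolactone, and prednisolone. *Nlrp3* and *Gsdmd* lead in vehicle at 183 and 166 TPM, and *Nlrc4* is lowest at 13.6 TPM. The exon length merges all annotated exons of a gene, and the order between genes holds only for this length.

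The genes lie on chromosomes 1, 7, 9, 11, 15, and 17 of GRCm39. *Nlrp3* occupies chr11:59432394-59457782 on the plus strand and *Nlrp1b* chr11:71043928-71121559 on the minus strand. *Casp1* (chr9:5298508-5307290) and *Casp4* (chr9:5308828-5336783) are neighbors on the plus strand with 1537 bases between them, and *Il18* lies on the same chromosome at chr9:50466081-50493633. *Pycard* is at chr7:127588558-127593039 on the minus strand, *Gsdmd* at chr15:75733974-75739257, *Aim2* at chr1:173178445-173293930, and *Nlrc4* at chr17:74732433-74766165 on the minus strand. *Nlrc4* shares 867 exon bases, 17.9% of its exon length, with *Slc30a6* on the opposite strand, and the strand setting of the counting is not given in the sources used here.

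The 250 bases before the annotated start of the canonical transcript were read from GRCm39 for each gene and searched on both strands for 6 short motifs. Prednisolone acts through the glucocorticoid receptor, for which the half-site TGTTCT (reverse complement AGAACA) was searched. It occurred in 2 of the 9 windows, *Casp1* and *Nlrp1b*, and in 14.3% of 21751 windows of protein-coding genes. The kappaB letters GGGANTTTC occurred in 1.08% of all windows, the interferon-stimulated element GAAANNGAA in 7.55%, the gamma-activated site TTCNNNGAA in 7.69%, and the AP-1 letters TGANTCA in 6.17%, and none of these was found in the 9 windows. The PU.1 letters GAGGAAGT occurred in 2.08% of all windows and in 1 of the 9, *Pycard*. A match is a description of letters and not a bound site, and no match says only that these letters are not in the window. Given 5′ to 3′ on the strand of each gene are the window of *Nlrp3*, the gene with the largest difference between spironolactone and vehicle among the 9, and those of *Casp1* and *Nlrp1b*, with the half-site in capitals. The windows are chr11:59433262-59433511 (plus), chr9:5298258-5298507 (plus), and chr11:71092283-71092532 (minus). The half-site lies 179 to 174 bases before the start of *Casp1*, and on the opposite strand 209 to 204 bases before the start of *Nlrp1b*.
Nlrp3: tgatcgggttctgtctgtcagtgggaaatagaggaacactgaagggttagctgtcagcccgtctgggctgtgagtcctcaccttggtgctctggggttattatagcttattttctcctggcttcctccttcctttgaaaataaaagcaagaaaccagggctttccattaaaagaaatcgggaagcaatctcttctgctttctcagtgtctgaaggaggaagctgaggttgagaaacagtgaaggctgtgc
Casp1: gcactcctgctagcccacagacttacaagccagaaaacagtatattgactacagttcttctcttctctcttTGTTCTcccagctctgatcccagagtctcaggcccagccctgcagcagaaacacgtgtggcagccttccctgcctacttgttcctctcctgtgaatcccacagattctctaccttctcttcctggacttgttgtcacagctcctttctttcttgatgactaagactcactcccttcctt
Nlrp1b: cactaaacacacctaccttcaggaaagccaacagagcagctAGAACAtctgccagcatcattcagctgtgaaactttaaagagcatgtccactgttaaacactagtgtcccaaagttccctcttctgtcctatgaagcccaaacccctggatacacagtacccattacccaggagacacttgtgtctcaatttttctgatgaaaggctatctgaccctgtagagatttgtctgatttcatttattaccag

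No inflammasome or pyroptosis gene passed the threshold of adjusted *P* under 0.05 in any of the 3 comparisons. Against vehicle, prednisolone libraries were lower in 8 of the 9 genes, with a median log2 fold change of -0.16 against -0.01 over all genes tested, of which 52.2% were lower. Spironolactone libraries were lower than vehicle in 6 of the 9, with a median of -0.02, near 0.00 for all genes. That count depended on the scaling. With upper quartile factors in place of TMM, *Casp4*, *Nlrp1b*, and *Gsdmd* were higher, at 0.002, 0.005, and 0.03, and the median of all genes was 0.03. Between the drugs, spironolactone libraries were higher than prednisolone libraries in 8 of the 9, with a median of 0.24 against 0.03 for all genes, of which 46.6% were lower. *Nlrp3* was the exception in both comparisons that involve prednisolone. The comparisons of each drug with vehicle share the 3 vehicle libraries, and the comparison between the drugs shares a group with each of them, so that the directions are not independent of one another. Several of the 9 genes also ran together over the libraries, with Pearson *r* between pairs from -0.66 (*Nlrc4* and *Pycard*) to 0.90 (*Casp1* and *Gsdmd*). A count of genes is thus not a count of separate observations.

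The counts of genes are read against the same counts over all 16618 genes. For prednisolone against vehicle, 0 of 9 passed the adjusted threshold where 1.76% of all genes did, 3 of 9 had an unadjusted *P* under 0.05 where 14.2% of all genes did, and 3 of 9 (*Aim2*, *Nlrp1b*, and *Pycard*, all lower) had groups that did not overlap where 19.7% of all genes did. For spironolactone against vehicle, 0 of 9 passed the adjusted threshold where 0.0181% of all genes did, 1 of 9 (*Nlrp3*) had an unadjusted *P* under 0.05 where 9.29% did, and 0 of 9 had groups that did not overlap where 13.5% did. For spironolactone against prednisolone, 0 of 9 passed where 5.17% of all genes did, 5 of 9 (*Nlrp3*, *Aim2*, *Nlrp1b*, *Pycard*, and *Gsdmd*) had an unadjusted *P* under 0.05 where 22.5% did, and 6 of 9, all higher with spironolactone, had groups that did not overlap where 30.3% did. DESeq2 and limma-voom on all 9 libraries also called 0 of 9 in each comparison. DESeq2 on the 2 compared groups called 1 of 9 for prednisolone against vehicle (*Nlrp1b*), 0 of 9 for spironolactone against vehicle, and 2 of 9 between the drugs (*Gsdmd* and *Nlrp1b*). Without vehicle replicate 1, edgeR called 1 of 9 for prednisolone against vehicle (*Gsdmd*), 0 of 9 for spironolactone against vehicle, and 2 of 9 between the drugs (*Gsdmd* and *Nlrp1b*). Both of these fits also called more of all genes for prednisolone against vehicle and between the drugs than edgeR on all 9 libraries. Those numbers are given below, with the dependence on the processing.

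**Figure D2:**
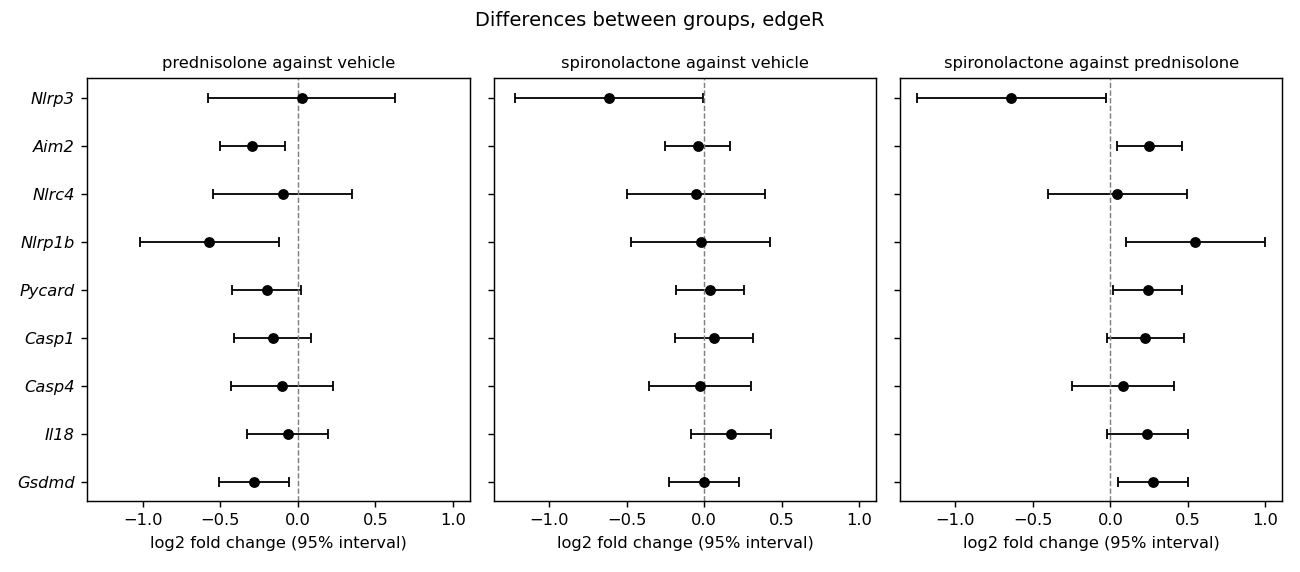
Log2 fold changes of the 9 genes in the 3 comparisons, with points at the edgeR estimate and bars at its 95% interval. The interval lies below 0 for *Aim2*, *Nlrp1b*, and *Gsdmd* in prednisolone against vehicle and for *Nlrp3* in both spironolactone comparisons, before adjustment over all genes. In spironolactone against prednisolone it lies above 0 for *Pycard*, *Gsdmd*, *Aim2*, and *Nlrp1b*, also before adjustment.

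*Nlrp3* encodes the sensor of membrane damage and ion flux that has been studied most in sterile inflammation. It was at 139, 179, and 188 CPM in vehicle replicates 1, 2, and 3, at 82.7, 147, and 102 CPM in spironolactone replicates, and at 200.4, 199.7, and 115 CPM in prednisolone replicates. Spironolactone replicates 1 and 3 lay below every vehicle library, while replicate 2 lay inside the vehicle range. Prednisolone replicates 1 and 2 lay above the vehicle range and replicate 3 below it, so that this group spanned both. The group means were 169 ± 26.1, 110.4 ± 33.0, and 172 ± 48.8 CPM (SD, *n* = 3). The log2 fold change was -0.61 ± 0.27 for spironolactone against vehicle (95% interval -1.22 to -0.01, adjusted *P* = 0.535), and it was not past the threshold. Over the fits that each left out a library, it ran from -0.87 (without spironolactone replicate 2, adjusted *P* = 0.219) to -0.44 (without spironolactone replicate 1, adjusted *P* = 0.623), with adjusted *P* from 0.219 to 0.873. The call depended on the low-count filter, since without one the adjusted *P* was 9.06e-06 for spironolactone against vehicle and 4.33e-07 against prednisolone, at a nearly unmoved fold change (-0.61 and -0.65) and a smaller SE (0.11). The highest adjusted *P* over the 11 alternative settings, that one included, was 0.544 and 0.276. Against prednisolone, spironolactone libraries gave -0.64 ± 0.27 (adjusted *P* = 0.201), and prednisolone against vehicle gave 0.03 ± 0.26 (95% interval -0.58 to 0.63, adjusted *P* = 0.978), which ran from -0.10 without prednisolone replicate 1 to 0.25 without prednisolone replicate 3. Of the 9 genes, *Nlrp3* had the largest ratio between its highest and lowest library, at 2.42.

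*Aim2* encodes a sensor of double-stranded DNA in the cytosol. Its levels were 49.7, 49.3, and 47.2 CPM in vehicle, 53.3, 46.4, and 42.3 CPM in spironolactone, and 37.4, 39.9, and 42.0 CPM in prednisolone libraries. Every prednisolone library lay below every vehicle and spironolactone library, while the spironolactone libraries surrounded the vehicle values. The vehicle libraries were closest together for this gene, with a coefficient of variation of 2.74%. Prednisolone against vehicle gave a log2 fold change of -0.29 ± 0.10 (95% interval -0.50 to -0.08, adjusted *P* = 0.165), the smallest adjusted *P* of the 9 genes in that comparison. Spironolactone against prednisolone gave 0.25 ± 0.10 (adjusted *P* = 0.143), and spironolactone against vehicle -0.04 ± 0.10 (95% interval -0.25 to 0.17, adjusted *P* = 0.944). With single libraries left out, the prednisolone difference from vehicle ran from -0.33 (without prednisolone replicate 3) to -0.25 (without prednisolone replicate 1), and the spironolactone difference from -0.14 to 0.03 (without spironolactone replicates 1 and 3). The difference between the drugs ran from 0.16 without spironolactone replicate 1 to 0.32 without spironolactone replicate 3.

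*Nlrc4*, which pairs with NAIP proteins to detect bacterial flagellin and secretion systems, showed no ordered difference between groups. It was at 19.1, 10.7, and 14.6 CPM in vehicle, 14.7, 17.3, and 10.7 CPM in spironolactone, and 12.7, 14.3, and 14.5 CPM in prednisolone libraries. The spironolactone and prednisolone values all lay within the vehicle range, whose ends were replicates 1 and 2. The log2 fold changes were -0.10 ± 0.21 for prednisolone against vehicle, -0.05 ± 0.21 for spironolactone against vehicle, and 0.04 ± 0.21 between the drugs. The 95% intervals of the differences from vehicle, -0.55 to 0.35 and -0.50 to 0.39, leave room for moderate changes in either direction. The sign of both depended on single vehicle libraries, since they were 0.13 and 0.17 without vehicle replicate 1 and -0.28 and -0.24 without vehicle replicate 2, the ends of their ranges. The difference between the drugs ran from -0.12 without spironolactone replicate 2 to 0.21 without spironolactone replicate 3.

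*Nlrp1b* encodes a sensor that is activated when proteases such as anthrax lethal factor cut its N terminus. Its levels were 62.2, 40.6, and 36.0 CPM in vehicle, 55.8, 44.4, and 36.4 CPM in spironolactone, and 29.4, 30.7, and 33.4 CPM in prednisolone libraries. All prednisolone libraries lay below all others, and vehicle replicate 1 was the highest library. The log2 fold change for prednisolone against vehicle was -0.57 ± 0.20 (95% interval -1.02 to -0.12, adjusted *P* = 0.222), the largest in size of the 9 genes. It was -0.30 ± 0.15 without vehicle replicate 1 (adjusted *P* = 0.288) and -0.72 without vehicle replicate 3 (adjusted *P* = 0.129), the ends of the range of the fold change over the fits that each left out a library, while adjusted *P* ran from 0.129 to 0.472. Over 11 other settings it ran from 0.000169 to 0.275, and 2 of them passed the threshold, no low-count filter and DESeq2 on 2 groups (0.0445). Spironolactone against prednisolone gave 0.55 ± 0.20 (adjusted *P* = 0.142), and it gave 0.55 ± 0.13 (adjusted *P* = 0.0192, range 0.0192 to 0.321) when vehicle replicate 1 was left out of the shared estimate of spread. Over the 11 other settings the adjusted *P* between the drugs ran from 0.000226 to 0.187, and 3 passed the threshold. Spironolactone against vehicle gave -0.02 ± 0.20 (adjusted *P* = 0.985), and it ran from -0.20 without spironolactone replicate 1 to 0.25 without vehicle replicate 1. The near copy *Nlrp1a* ran the other way at lower levels, with 651 to 739 reads in vehicle, 664 to 695 reads in spironolactone, and 827 to 881 reads in prednisolone libraries. Its log2 fold change was 0.24 ± 0.10 for prednisolone against vehicle (adjusted *P* = 0.278) and -0.26 ± 0.10 for spironolactone against prednisolone (adjusted *P* = 0.131), neither past the threshold. Reads shared between *Nlrp1b* and its near copies *Nlrp1a* and *Nlrp1c-ps* could have been left out or split by the counting, so that the levels of these genes are uncertain.

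**Figure D3:**
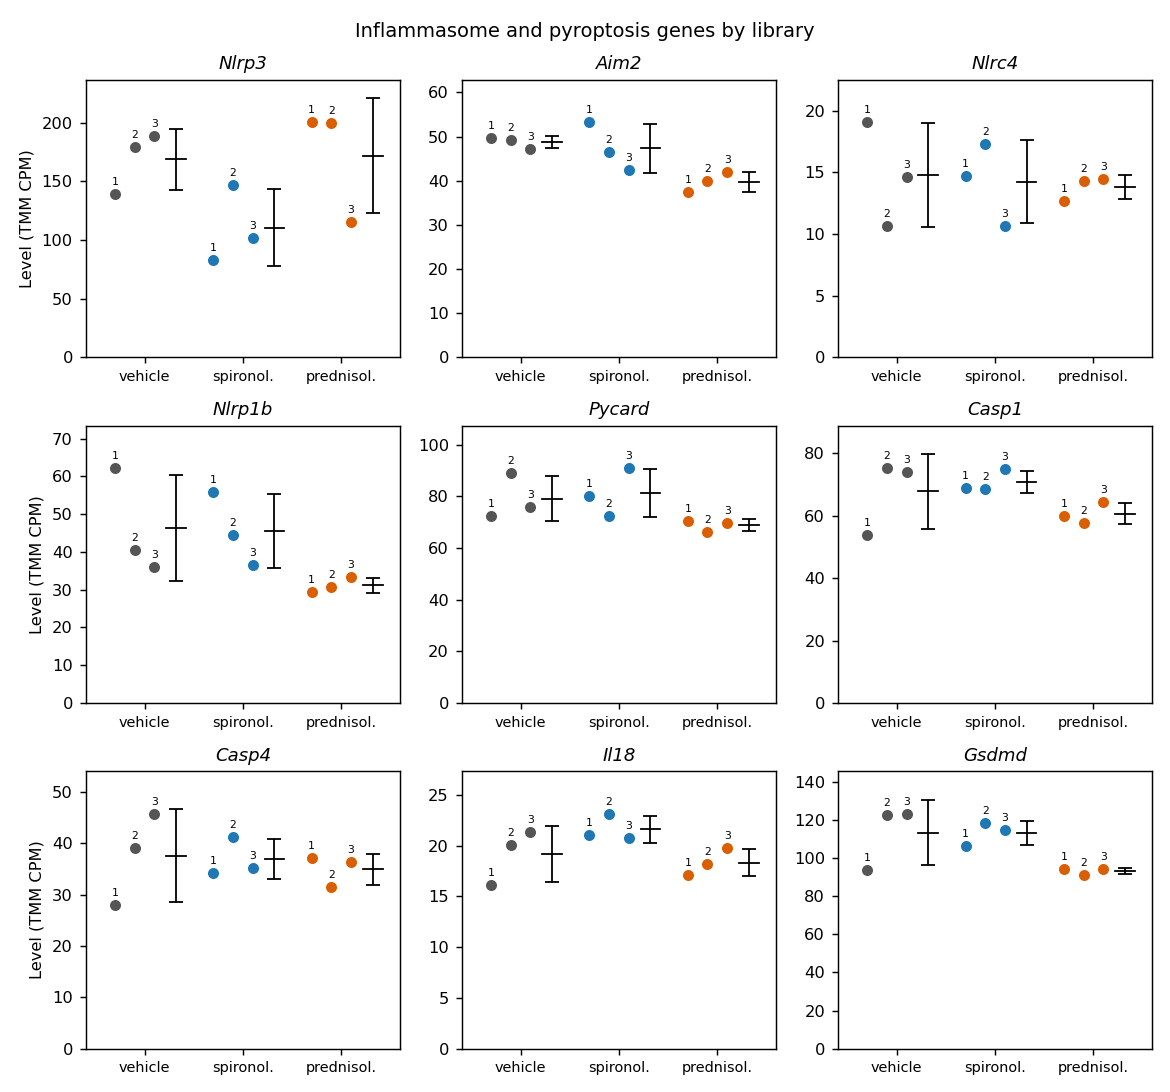
CPM of each of the 9 genes in the 9 libraries, with 3 libraries per group numbered by replicate and the mean ± SD drawn beside them. The prednisolone libraries of *Aim2* (37.4 to 42.0 CPM) and *Nlrp1b* (29.4 to 33.4 CPM) lie below all others, and 2 of the 3 spironolactone libraries of *Nlrp3* (82.7 and 102 CPM) lie below all its vehicle libraries.

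The adaptor *Pycard* links sensors to caspase-1 through its pyrin and CARD domains. It was at 72.3, 89.0, and 76.0 CPM in vehicle, 80.2, 72.5, and 91.0 CPM in spironolactone, and 70.6, 66.2, and 69.6 CPM in prednisolone libraries. All prednisolone values were below all others, by a small margin to vehicle replicate 1 and spironolactone replicate 2. The differences were small on the log2 scale, at -0.20 ± 0.10 for prednisolone against vehicle (95% interval -0.42 to 0.02, adjusted *P* = 0.410), 0.24 ± 0.10 for spironolactone against prednisolone (adjusted *P* = 0.189), and 0.04 ± 0.10 for spironolactone against vehicle (95% interval -0.18 to 0.26, adjusted *P* = 0.956). With single libraries left out, the prednisolone difference from vehicle ran from -0.26 (without vehicle replicate 1) to -0.11 (without vehicle replicate 2), and the spironolactone difference from -0.05 (without spironolactone replicate 3) to 0.13 (without vehicle replicate 2). The difference between the drugs ran from 0.15 without spironolactone replicate 3 to 0.31 without spironolactone replicate 2.

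*Casp1*, the protease that all canonical inflammasomes activate, was at 53.9, 75.3, and 74.1 CPM in vehicle libraries. It was at 68.9, 68.7, and 74.9 CPM in spironolactone and at 59.8, 57.7, and 64.3 CPM in prednisolone libraries. The spironolactone libraries all lay above the prednisolone libraries, and the vehicle libraries spanned both because vehicle replicate 1 was the lowest of the 9. Spironolactone against prednisolone gave a log2 fold change of 0.22 ± 0.12 (95% interval -0.02 to 0.47, adjusted *P* = 0.272), prednisolone against vehicle -0.16 ± 0.12 (adjusted *P* = 0.587), and spironolactone against vehicle 0.06 ± 0.12 (adjusted *P* = 0.920). With single libraries left out, prednisolone against vehicle ran from -0.30 without vehicle replicate 1 (adjusted *P* = 0.0583) to -0.08 without vehicle replicate 2 (adjusted *P* = 0.892), the lowest and highest adjusted *P* of the 9 fits. Spironolactone against vehicle ran from -0.08 without vehicle replicate 1 to 0.15 without vehicle replicate 2.

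*Casp4*, the mouse gene for caspase-11 of the noncanonical pathway, had overlapping groups in all comparisons. Its levels were 27.9, 39.2, and 45.8 CPM in vehicle, 34.2, 41.3, and 35.2 CPM in spironolactone, and 37.1, 31.5, and 36.3 CPM in prednisolone libraries. Both drug groups lay inside the vehicle range. The log2 fold changes were -0.11 ± 0.15 for prednisolone against vehicle (adjusted *P* = 0.822), -0.03 ± 0.15 for spironolactone against vehicle (95% interval -0.36 to 0.30, adjusted *P* = 0.979), and 0.08 ± 0.15 between the drugs (adjusted *P* = 0.820). The differences from vehicle depended on single vehicle libraries, at -0.28 and -0.20 without replicate 1 and at 0.06 and 0.13 without replicate 3, the ends of their ranges. The difference between the drugs ran from -0.01 without spironolactone replicate 2 to 0.13 without spironolactone replicate 1.

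*Il18* encodes the precursor of a cytokine that drives interferon gamma production. It was at 16.1, 20.1, and 21.3 CPM in vehicle, 21.0, 23.1, and 20.7 CPM in spironolactone, and 17.1, 18.2, and 19.8 CPM in prednisolone libraries. The spironolactone libraries lay above the prednisolone libraries, and vehicle libraries overlapped both. Spironolactone against prednisolone gave a log2 fold change of 0.24 ± 0.12 (adjusted *P* = 0.267), spironolactone against vehicle 0.17 ± 0.12 (95% interval -0.09 to 0.43, adjusted *P* = 0.720), and prednisolone against vehicle -0.06 ± 0.12 (adjusted *P* = 0.867). The differences from vehicle were 0.06 with spironolactone and -0.17 with prednisolone without vehicle replicate 1, and 0.25 and 0.02 without vehicle replicate 3, the ends of their ranges.

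*Gsdmd* encodes gasdermin D, the pore former of pyroptosis. Its levels were 93.5, 123, and 123 CPM in vehicle, 106, 118, and 114 CPM in spironolactone, and 94.1, 91.1, and 94.3 CPM in prednisolone libraries. The prednisolone libraries were close together, with a coefficient of variation of 1.96%, and lay below all spironolactone libraries and below 2 of the 3 vehicle libraries. Vehicle replicate 1 was within the prednisolone range. The log2 fold change for prednisolone against vehicle was -0.28 ± 0.11 (adjusted *P* = 0.229), and without vehicle replicate 1 it was -0.40 ± 0.08 (adjusted *P* = 0.0122, range 0.0122 to 0.536 over the fits that each left out a library), while it was -0.21 without vehicle replicate 3. Spironolactone against prednisolone gave 0.28 ± 0.11 (adjusted *P* = 0.136), the smallest adjusted *P* of the 9 genes in that comparison, and 0.28 ± 0.07 (adjusted *P* = 0.0273, range 0.0273 to 0.311) without vehicle replicate 1. Spironolactone against vehicle gave a log2 fold change within 0.01 of 0 (SE 0.11, 95% interval -0.23 to 0.22, adjusted *P* = 0.997), and it ran from -0.12 without vehicle replicate 1 to 0.06 without vehicle replicate 2.

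Replicates of a group differed to an extent that depended on the gene. In vehicle libraries, the coefficient of variation was 30.3% for *Nlrp1b*, 28.4% for *Nlrc4*, and 24.0% for *Casp4*. Vehicle replicate 1 held the lowest value of 3 genes (*Casp1*, *Casp4*, and *Il18*) and the highest of 2 (*Nlrc4* and *Nlrp1b*) over the 9 libraries. As a description over the 9 libraries, which share their groups and have near equal depth, Pearson *r* of log2 levels was 0.90 between *Casp1* and *Gsdmd*, 0.86 between *Aim2* and *Nlrp1b*, and 0.82 between *Casp1* and *Il18*. Against the other 8 genes, *r* ran from -0.51 (*Nlrp1b*) to 0.25 (*Casp4*) for *Nlrp3* and from -0.66 (*Pycard*) to 0.53 (*Nlrp1b*) for *Nlrc4*.

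Genes whose levels ran most like those of each gene were listed among 9838 genes above 5 CPM, again as a description over 9 libraries. *Ptgs2*, which encodes the prostaglandin-forming enzyme COX-2, was most like *Nlrp3* (*r* = 0.98). It was at 493, 639, and 747 CPM in vehicle, 331, 623, and 364 CPM in spironolactone, and 787, 730.2, and 447 CPM in prednisolone libraries. The 3 lowest libraries were the same for both genes, namely spironolactone replicates 1 and 3 and prednisolone replicate 3. *Il1b*, the other cytokine that caspase-1 processes, was at 459.5, 816, and 958 CPM in vehicle, 413, 881, and 617 CPM in spironolactone, and 1007, 935, and 594 CPM in prednisolone libraries, with adjusted *P* values of 0.878, 0.913, and 0.584 for prednisolone against vehicle, spironolactone against vehicle, and spironolactone against prednisolone. The gene most like *Nlrp1b* was *Adap2* (*r* = 0.99), and the genes most like *Gsdmd* were the proteasome genes *Psme2* and *Psma7* (*r* = 0.99 for each). *Gng5* was most like *Casp1* (*r* = 0.97), *Arpc5* most like *Casp4* (*r* = 0.95), *Fam114a1* most like *Aim2* (*r* = 0.94), *Cds2* most like *Nlrc4* (*r* = 0.95), *AY036118* most like *Il18* (*r* = 0.97), and *Ndufa1* most like *Pycard* (*r* = 0.92).

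**Figure D4:**
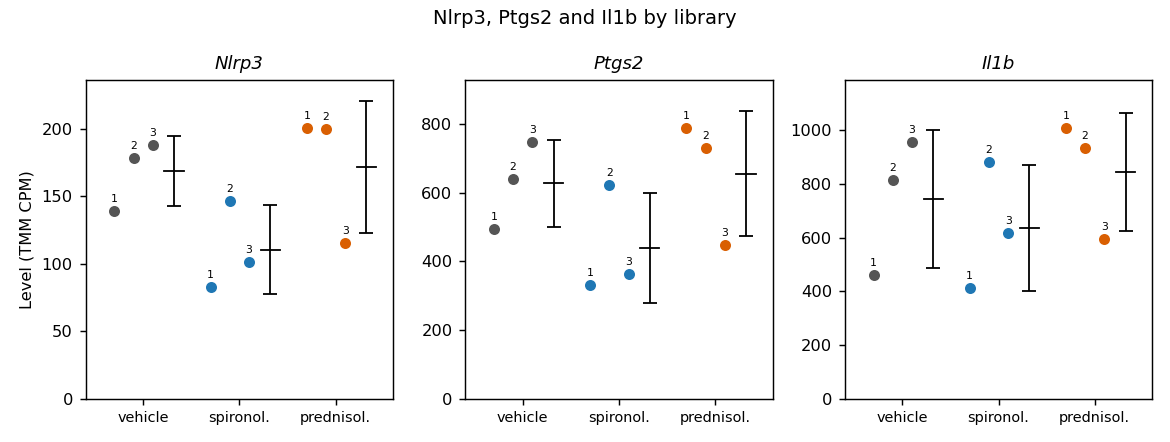
CPM of *Nlrp3*, *Ptgs2*, and *Il1b* in the 9 libraries, with libraries numbered by replicate and the mean ± SD of each group beside them. Spironolactone replicate 1 is the lowest library of each gene (82.7, 331, and 413 CPM), and prednisolone replicate 3 is the lowest prednisolone library of each.

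Of the other genes of the pathway, 85 in 6 lists were found in the count data, and 4 passed the threshold in at least 1 comparison. Of all genes tested, 1.76% passed for prednisolone against vehicle, 0.0181% for spironolactone against vehicle, and 5.17% between the drugs. The list of noncanonical and interferon-induced genes had 11 tested genes, which include the guanylate-binding proteins and interferon-inducible GTPases that expose bacterial products to caspase-11. All 11 had a lower fitted level with prednisolone than with vehicle, with a median log2 fold change of -0.40 against -0.01 over all genes, of which 52.2% were lower. Of the 11, 1 passed the threshold, where 1.76% of all genes did, and 2 had groups that did not overlap, 18.2% of the list beside 19.7% of all genes. All 11 had a higher fitted level with spironolactone than with prednisolone, with a median of 0.46 against 0.03 over all genes. Between the drugs, 2 passed the threshold, where 5.17% of all genes did, and 5 had groups that did not overlap, 45.5% of the list beside 30.3% of all genes. Against vehicle, spironolactone libraries were higher in 7 and lower in 4 of the 11 (0 past the threshold, median 0.08).

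*Irf1*, a transcription factor of interferon responses that drives several of these genes, fell with prednisolone. It was at 85.6, 91.9, and 90.1 CPM in vehicle, 90.0, 95.1, and 81.0 CPM in spironolactone, and 65.8, 62.1, and 63.2 CPM in prednisolone libraries. The prednisolone libraries lay well below all others, which overlapped. The log2 fold change was -0.49 ± 0.09 for prednisolone against vehicle (adjusted *P* = 0.0122) and 0.48 ± 0.09 for spironolactone against prednisolone (adjusted *P* = 0.00781). Of 9 fits that each left out a library, 6 kept the call against vehicle and 8 kept the call against spironolactone. The highest adjusted *P* values were 0.0985 and 0.0501, both without prednisolone replicate 2, with the log2 fold change at -0.47 and 0.46.

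*Gbp3*, a guanylate-binding protein gene, was at 23.0, 26.6, and 25.2 CPM in vehicle, 29.8, 32.4, and 30.4 CPM in spironolactone, and 15.1, 18.1, and 23.3 CPM in prednisolone libraries. It was higher in spironolactone than in prednisolone libraries (0.71 ± 0.14, adjusted *P* = 0.0105), with no overlap between the groups. This adjusted *P* was 0.0612 without prednisolone replicate 2. *Gbp3* did not pass the threshold for either drug against vehicle (adjusted *P* = 0.173 for prednisolone and 0.510 for spironolactone).

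In the list of IL-1 family genes and receptors, 11 genes were tested, and 1 passed the threshold, between the drugs, where 5.17% of all genes did. *Il18bp*, which encodes a secreted protein that binds and blocks IL-18, was at 18.8, 21.3, and 15.5 CPM in vehicle, 22.5, 20.9, and 19.7 CPM in spironolactone, and 13.2, 10.9, and 16.5 CPM in prednisolone libraries. It was higher with spironolactone than with prednisolone (0.63 ± 0.15, adjusted *P* = 0.0322), and the call was lost in 5 of 9 fits that each left out a library (highest adjusted *P* 0.137, without prednisolone replicate 2). *Il18* itself had the same direction in that comparison and was not past the threshold, as given above.

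In the priming list, which holds receptors and signal proteins upstream of *Nlrp3* and *Il1b* transcription, 16 genes were tested. Of these, 1 passed the threshold, between the drugs, where 5.17% of all genes did. *Tlr4*, the lipopolysaccharide receptor, was at 79.2, 86.0, and 91.5 CPM in vehicle, 78.3, 79.6, and 77.9 CPM in spironolactone, and 96.1, 98.9, and 104 CPM in prednisolone libraries. It was lower with spironolactone than with prednisolone (-0.34 ± 0.08, adjusted *P* = 0.0311), and the call was lost in 6 of 9 fits that each left out a library (highest adjusted *P* 0.115, without prednisolone replicate 3). Against vehicle, spironolactone libraries were lower in 13 of the 16 priming genes, and 0 passed the threshold with edgeR, while 7 had an unadjusted *P* under 0.05, all lower, where 9.29% of all genes did in either direction. The smallest *P* among them was that of *Tlr2* (-0.54 ± 0.14, adjusted *P* = 0.166), which was at 160 to 232 CPM in spironolactone and 247 to 316 CPM in vehicle libraries. For prednisolone against vehicle it was that of *Irak2*, a kinase of Toll-like receptor signaling (-0.34 ± 0.09, adjusted *P* = 0.0845). Between spironolactone and vehicle, 6 of the 16 had groups that did not overlap, all lower, 37.5% of the list beside 13.5% of all genes. DESeq2 called more of all genes than edgeR in that comparison, as given below, and its calls for this whole list are not given here.

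**Figure D5:**
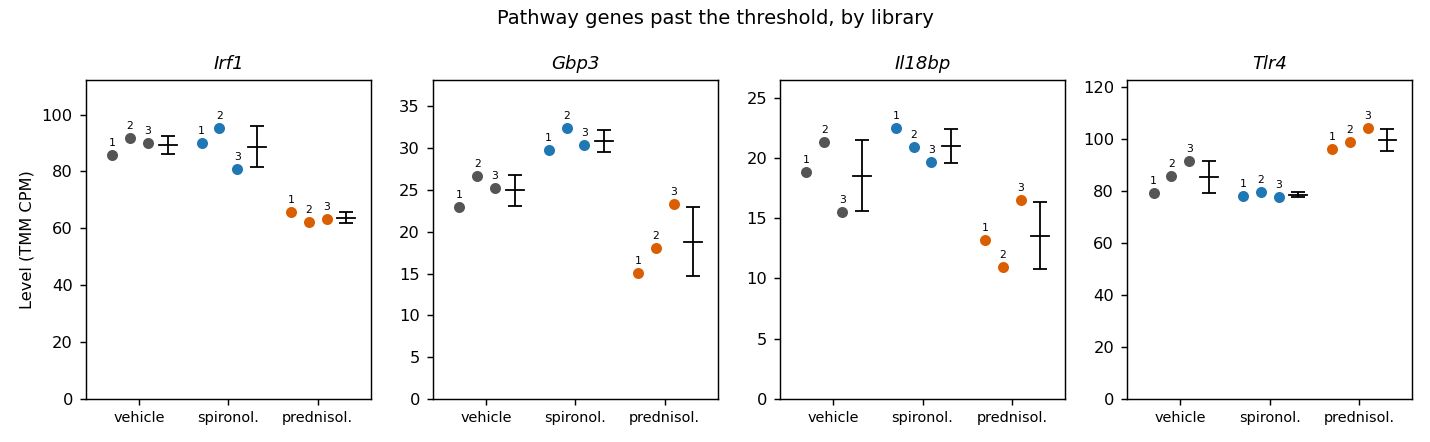
CPM of the 4 pathway genes that passed the threshold in at least 1 comparison, in the 9 libraries numbered by replicate, with the mean ± SD of each group beside them. Prednisolone libraries are lowest for *Irf1* (62.1 to 65.8 CPM) and highest for *Tlr4* (96.1 to 104 CPM).

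The remaining 3 lists held no gene past the threshold with edgeR. Of 20 other sensors and partners tested, 5 had an unadjusted *P* under 0.05 for prednisolone against vehicle, 0 for spironolactone against vehicle, and 3 between the drugs, where 14.2%, 9.29%, and 22.5% of all genes did, with *Ifi207*, *Dhx9*, and *Nlrp1a* at the smallest *P* in turn. Of 14 genes of NLRP3 activation and control, those numbers were 1, 2, and 2, led by the channel gene *Panx1* (0.37 ± 0.11 for prednisolone against vehicle, adjusted *P* = 0.126, and -0.36 ± 0.11 between the drugs, adjusted *P* = 0.0785). For spironolactone against vehicle, the gene with the smallest *P* in that list was *Tnfaip3*, which encodes the NF-kappaB inhibitor A20 (-0.70 ± 0.23, adjusted *P* = 0.343). Of 10 other executioners tested, 1 had an unadjusted *P* under 0.05, *Ninj1*, which ruptures the membrane of dying cells (spironolactone against vehicle, -0.23 ± 0.09, adjusted *P* = 0.430).

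Markers of the cell types that the sort could hold were summed for each library beside these results. The gate on CD45 and CD11b should remove endothelial cells, fibroblasts, muscle fibers, and most lymphocytes. Whether transcripts of their markers came from such cells or from the sorted myeloid cells was not tested. The 12 neutrophil markers summed to 761, 1011, and 4860 CPM in vehicle, 1369, 1575, and 3621 CPM in spironolactone, and 950, 969, and 749 CPM in prednisolone libraries, with *Elane* and *Mpo* at 0 in 1 library each. The 11 monocyte markers summed to 2480 to 4293 CPM in vehicle, 2683 to 3162 CPM in spironolactone, and 3516 to 4617 CPM in prednisolone libraries, and vehicle replicate 1 was the lowest. The 13 macrophage markers summed to 9204 to 10850 CPM in vehicle, 10411 to 11565 CPM in spironolactone, and 8764 to 9702 CPM in prednisolone libraries, so that the drug groups did not overlap. The 11 lymphocyte markers were low, at 24.6 to 26.7 CPM in vehicle, 36.4 to 45.2 CPM in spironolactone, and 15.3 to 23.6 CPM in prednisolone libraries, with no overlap between groups. The 7 eosinophil and mast cell markers summed to 43.3 to 73.5 CPM in vehicle, 38.0 to 75.9 CPM in spironolactone, and 26.4 to 34.3 CPM in prednisolone libraries. The 9 skeletal muscle markers summed to 195 to 296 CPM in vehicle, 366 to 606 CPM in spironolactone, and 309 to 479 CPM in prednisolone libraries, so that both drug groups lay above vehicle. The 7 fibroblast markers summed to 619 to 879 CPM in vehicle, 811 to 1194 CPM in spironolactone, and 773 to 877 CPM in prednisolone libraries, and the 8 dendritic cell markers to 65.3 to 80.3, 77.5 to 138, and 90.0 to 114 CPM. These groups overlapped except that every prednisolone library was above every vehicle library for the dendritic markers. Endothelial markers (7 genes) summed to 147 to 201 CPM in vehicle, 219 to 338 CPM in spironolactone, and 135 to 176 CPM in prednisolone libraries. The neutrophil, macrophage, lymphocyte, eosinophil and mast cell, and endothelial sums were thus higher in every spironolactone library than in every prednisolone library, the direction of 8 of the 9 inflammasome genes, and the monocyte sums were lower. A sum is set by its most abundant genes, and between the drugs 6 of 13 macrophage and 5 of 11 monocyte markers were higher with spironolactone, against 11 of 12 neutrophil, 10 of 11 lymphocyte, and 7 of 7 endothelial markers. The part of these markers in the differences was not tested.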

How the data were processed

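RNA from sorted cells of 9 pools was sequenced, 3 libraries per group. The authors aligned reads to mm39 with HISAT2 2.2.1, counted them per gene with HTSeq 0.11.3 according to their processing notes, and deposited whole-number counts without normalization. The strand setting and the annotation release are not given in the sources used here. Lines naming no gene, 17.2% to 21.8% of reads or pairs in a library, were left out. Deposited tables of the authors' own DESeq2 1.32.0 comparisons (fold changes and *P* values) were not used.

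Of 50559 genes listed, 16618 passed filterByExpr (minimum count 10, minimum total 15). Groups were compared with the two-sided quasi-likelihood F test of edgeR 4.0.16 in R 4.3.3 (TMM, robust=TRUE, all 9 libraries in 1 fit, no covariate), with Benjamini-Hochberg adjustment over all genes and a threshold of 0.05. SE is the log2 fold change divided by the root of F. *P* values set the difference between groups against the spread between pools, which was estimated over all 9 libraries with sharing between genes. TPM used the merged length of all annotated exons of GRCm39 genes with the same symbol (40303 symbols, at least 91.0% of counts). The correlation of levels used log2 CPM with a prior count of 2. Alternatives were DESeq2 1.42.0, limma 3.58.1 voom, other normalizations and filters, robust=FALSE, a replicate block, and leaving out each library. The fits were also run on 1 simulated set for prednisolone against vehicle, with 200 genes changed 2-fold or more in either direction. Of the 200, edgeR recovered 168 with 15 false calls, DESeq2 173 with 39, and limma-voom 170 with 15. Smaller changes, such as those fitted for the 9 genes, were not simulated.

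The 9 genes and the pathway lists were chosen with earlier results of these data known. All 9 genes are named, with each pathway gene past the threshold and otherwise the gene of a list with the smallest *P*, and up to 3 genes whose levels ran most like those of each of the 9. *Il1b* and *Nlrp1c-ps* were named after their values were seen. The symbols *Pydc3*, *Pydc4*, *Irgb10*, *Il36g*, and *Il37* had no match, and *Nlrp6*, *Gsdma*, and *Gsdmc* did not pass the filter.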

Additional observations from a re-analysis of the deposited data

How the results depend on the processing

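The count of inflammasome genes past the threshold stayed at 0 of 9 in all 3 comparisons with DESeq2 or limma-voom on all 9 libraries, with RLE, upper quartile, or no factors, with at least 10 counts in every library, with robust=FALSE, and with a replicate block. It was 1 for prednisolone against vehicle (*Nlrp1b*) and 2 between the drugs (*Gsdmd*, *Nlrp1b*) with DESeq2 on 2 groups, and 2 between the drugs (the same 2 genes) with edgeR on 2 groups. Without a low-count filter it was 1 for prednisolone against vehicle (*Nlrp1b*), 1 for spironolactone against vehicle (*Nlrp3*), and 2 between the drugs (*Nlrp3*, *Nlrp1b*). Leaving out each library in turn gave 0 to 1, 0 to 0, and 0 to 2, with calls only without vehicle replicate 1. The cause was not tested. No called gene turned its direction.

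All genes called numbered 293, 3, and 859 in the order of prednisolone against vehicle, spironolactone against vehicle, and spironolactone against prednisolone. They numbered 684, 263, and 1594 with DESeq2 on all 9 libraries, 655, 239, and 2061 with DESeq2 on 2 groups, and 1019, 528, and 1940 without a low-count filter. Between the drugs, edgeR on 2 groups gave 1598. For spironolactone against vehicle, limma-voom and robust=FALSE each gave 0. Leaving out each library gave 69 to 826, 0 to 34, and 232 to 1898, with the highest values without vehicle replicate 1, spironolactone replicate 2, and vehicle replicate 1.

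The replicate block gave 336, 8, and 1082 genes. The numbers were treated as names only, since deviations of same-numbered libraries correlated by -0.04 to 0.15 over 9 pairs, of which 2 were above 0.1, and a library was most like its own number in another group in 6 of 18 cases.

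With 3 pools per group, the intervals rest on the spread between few pools. Their width also depended on the fit, as given for *Nlrp3* without a low-count filter. Transcript levels do not measure complex assembly, cleavage, or pore formation.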
